A study of Homo sapiens with 6 samples.

Results

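Genes of cholesterol and fatty acid synthesis, with their regulators and the carriers that take up or export sterols, were followed in IMR90 cells depleted of the histone variant macroH2A1. The 38 genes were named from the 2 pathways by their known roles, with earlier results of these data known. Of these, 37 matched an identifier among the 57659 genes of the count files. ACACA had no match and is given no value. The 37 genes comprise 28 sterol genes and 9 fatty acid genes.

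IMR90 is an established strain of diploid fibroblasts from human fetal lung, grown here with 10% serum. The knockdown group holds 3 libraries from cells that express a short hairpin RNA targeting macroH2A1, and the control group 3 libraries from cells whose hairpin targets luciferase, which has no counterpart in human cells. All cells thus carried a hairpin, and the number of hairpins per target is not given in the sources used here. The series calls the libraries of a group biological replicates without saying whether they came from separate cultures, so p-values measure the spread between these libraries.

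Cholesterol is built from acetyl-CoA through mevalonate, squalene and lanosterol, and fatty acids are built from the same acetyl-CoA through malonyl-CoA. When membranes of the endoplasmic reticulum are poor in sterol, SCAP carries the SREBP transcription factors to the Golgi for cleavage, and the released factors raise most enzymes of both pathways together; INSIG proteins hold SCAP back when sterol is plentiful. Excess sterol, in the form of oxysterols, activates LXR receptors, which with RXR raise the exporters ABCA1 and ABCG1.

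The promoter windows of 4 genes that changed and of 1 that was not called are shown so that their CCAAT boxes, the sites of the SREBP partner NF-Y, can be set beside the changes in level. The windows are RefSeq sequences of GRCh38.p14, from 250 bases before to 50 after a start site. Capitals mark matches on either strand to CCAAT, to the E-box CACGTG or to TCACNCCAC, a sterol response element. No 2 different motifs overlapped in these windows. STARD4 and MSMO1 were lower in the knockdown, VLDLR and ABCA1 were higher, and EBP was not called.
STARD4, chr5:111512486-111512785, minus strand: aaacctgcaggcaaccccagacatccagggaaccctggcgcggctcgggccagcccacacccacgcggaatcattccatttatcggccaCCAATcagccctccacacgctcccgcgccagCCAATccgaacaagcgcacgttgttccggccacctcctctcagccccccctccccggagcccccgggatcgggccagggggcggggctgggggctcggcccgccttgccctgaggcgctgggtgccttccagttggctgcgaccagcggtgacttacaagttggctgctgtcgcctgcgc
MSMO1, chr4:165327419-165327718, plus strand: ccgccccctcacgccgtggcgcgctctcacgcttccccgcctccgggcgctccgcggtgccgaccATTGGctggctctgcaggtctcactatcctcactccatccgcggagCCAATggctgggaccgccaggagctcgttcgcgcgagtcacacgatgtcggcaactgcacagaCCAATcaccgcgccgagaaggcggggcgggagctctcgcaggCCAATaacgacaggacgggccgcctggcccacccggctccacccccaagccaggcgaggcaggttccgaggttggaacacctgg
VLDLR, chr9:2621537-2621836, plus strand: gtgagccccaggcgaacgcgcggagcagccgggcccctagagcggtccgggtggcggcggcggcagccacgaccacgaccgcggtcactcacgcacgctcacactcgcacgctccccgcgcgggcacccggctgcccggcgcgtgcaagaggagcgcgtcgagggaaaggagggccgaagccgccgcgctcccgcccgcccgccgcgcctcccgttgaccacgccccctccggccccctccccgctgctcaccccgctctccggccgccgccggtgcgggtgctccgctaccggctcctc
ABCA1, chr9:104928106-104928405, minus strand: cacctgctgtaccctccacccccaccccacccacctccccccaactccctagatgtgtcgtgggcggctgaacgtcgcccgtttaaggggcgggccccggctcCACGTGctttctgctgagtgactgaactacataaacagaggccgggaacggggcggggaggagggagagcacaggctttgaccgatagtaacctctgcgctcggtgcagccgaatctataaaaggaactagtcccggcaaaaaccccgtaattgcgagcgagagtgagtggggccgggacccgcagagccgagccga
EBP, chrX:48521558-48521857, plus strand: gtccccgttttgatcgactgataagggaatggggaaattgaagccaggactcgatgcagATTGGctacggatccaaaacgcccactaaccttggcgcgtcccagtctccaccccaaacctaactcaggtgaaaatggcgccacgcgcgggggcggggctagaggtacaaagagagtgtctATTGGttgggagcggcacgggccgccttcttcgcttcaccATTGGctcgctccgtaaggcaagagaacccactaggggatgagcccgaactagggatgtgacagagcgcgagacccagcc

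A window was at hand for 32 of the 37 genes, with 41 windows in all. CCAAT was present in 25 of the 41 windows (61%), against 34.6% of all 35116 windows of this length. The share over all windows includes genes with little or no expression in fibroblasts. Counted by gene, CCAAT was present in 22 of the 32 (68.8%). The 4 genes that fell, IDI1, TM7SF2, MSMO1 and STARD4, were among these, and MSMO1 had 4 matches. IDI1 also had a window without CCAAT. Neither VLDLR nor ABCA1 had a match to CCAAT. Genes that were not called had CCAAT as well: EBP had 3 matches, NSDHL and MVK 5 each. The E-box was present in 7 of the 41 windows (17.1%, against 7.26% of all windows), including those of ABCA1 and INSIG1. TCACNCCAC was present in 1, that of SREBF2 (2.44%, against 1.13% of all windows). These matches describe the letters of the windows, and no binding was measured.

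The libraries held 3741087 to 6421605 gene counts, so that 3 counts correspond to 0.467 to 0.802 counts per 1000000. Levels are given as counts per 1000000 gene counts after TMM scaling (CPM). MACROH2A1, the targeted gene, had 197, 201 and 149 counts in the knockdown libraries and 582, 385 and 321 in the control libraries, and the knockdown mean was 46.3% of that in the control (edgeR log2 fold change -1.11, SE 0.08, adjusted p = 0.000918). Of 12 fibroblast markers, 11 were tested and 6 were higher in the knockdown, and their summed level was 20540 to 22190 CPM in the knockdown and 14090 to 16130 CPM in the control. Of 12 epithelial markers, 10 had at most 10 counts over all libraries and SFTPB had none; KRT18 fell, and the summed level was 7.71 to 12.6 CPM in the knockdown and 27.7 to 29.7 CPM in the control. Of 8 endothelial markers, 3 were tested: TEK and KDR rose, and FLT1 did not pass (log2 fold change -0.42). PECAM1 had no counts, and VWF had 8 in the knockdown group and 17 in the control group. The summed level was 143 to 149 CPM in the knockdown and 67.1 to 72.5 CPM in the control. Most of it was TEK, which averaged 132 CPM in the knockdown and 62.3 CPM in the control. KDR had 51, 33 and 27 counts in the knockdown libraries and 2, 2 and 1 in the control libraries. It passed the filter on low counts, given below, only through the knockdown group, so its call is a description. Of 8 markers each of blood cells and adipocytes, 7 had at most 10 counts, with CD3E, MS4A1, ADIPOQ and LEP at 0, and summed levels were 4.15 to 5.44 and 15.4 to 20.9 CPM in the knockdown against 5.49 to 7.44 and 15.3 to 18.5 CPM in the control. The 6 smooth muscle markers summed to 411 to 454 CPM in the knockdown and 460.0 to 504 CPM in the control, with log2 fold changes of -0.26 to 0.27. The part of these markers in the results on lipid genes was not tested. In bulk RNA, fewer cells of a type and less RNA per cell cannot be told apart.

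The response of the 2 pathways to macroH2A1 depletion was uneven, with a few genes called in each direction and most not called. Of 36 genes tested, 4 were lower in the knockdown and 2 higher by edgeR's quasi-likelihood test with an adjusted p under 0.05. STARD4, MSMO1, IDI1 and TM7SF2 fell, and VLDLR and ABCA1 rose. All 6 belong to the sterol genes, of which 27 were tested, beside 9 fatty acid genes. DESeq2 called 4 sterol and 2 fatty acid genes, and limma-voom 5 and 1. By edgeR, the share of all 13445 genes tested that was called was 8.21%, with 4.31% lower and 3.9% higher. At an unadjusted p under 0.05, 8 of the 36 were lower and 6 higher, against 12.5% and 12% of all genes.

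The median log2 fold change was -0.04 over the 27 sterol genes tested and -0.06 over the 9 fatty acid genes, against 0.01 over all genes tested. Negative fold changes were found in 16 of the sterol genes and 6 of the fatty acid genes, against 49.2% of all genes. The libraries of the 2 groups did not overlap for 15 of the 36 genes, 9 lower and 6 higher, against 30.4% of all genes, of which 15.9% lower and 14.5% higher. These counts cover only genes that passed the filter on low counts, set at 2.24 CPM in 3 libraries: 32 genes reached it in every library of both groups, TM7SF2 and PMVK did so in all control libraries only, and HSD17B7 in all knockdown libraries only. A gene that passes through 1 group is more likely to differ, so the counts are descriptions.

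**Figure D1:**
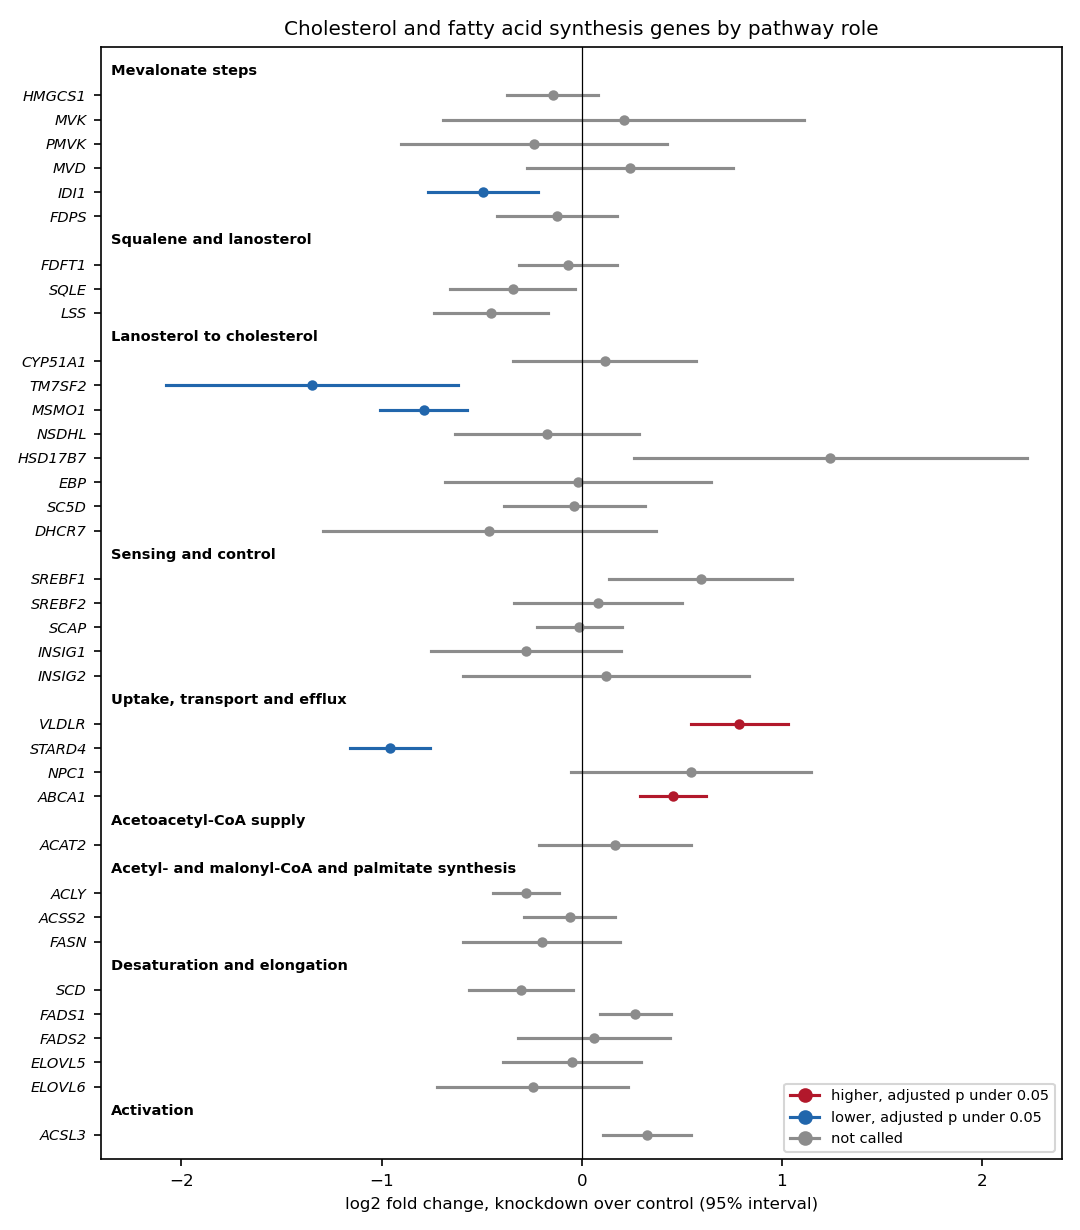
Log2 fold change (knockdown over control) of the 36 tested genes on the x axis, with 95% intervals from edgeR, grouped by pathway role down the page. Blue marks the 4 genes that were lower, red the 2 that were higher, both at adjusted p under 0.05, and grey the other genes. The intervals of poorly counted genes are wide, as for HSD17B7 and MVK. That of DHCR7 is wide as well, with libraries that differ within each group.

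Per kilobase of exon, the levels of these genes spanned more than the differences between the groups. ACLY was the most abundant in both groups, at 35.5 CPM per kb in the knockdown and 43.0 in the control. ABCA1 had 23.7 CPM per kb in the knockdown and 17.2 in the control, and ACSL3 had 21.7 in the knockdown and 17.3 in the control, so that ABCA1 stood above ACSL3 in the knockdown and level with it in the control. ELOVL5 followed at 11.98 in the knockdown and 12.4 in the control. MSMO1 had 5.70 CPM per kb in the knockdown and, next after ELOVL5, 9.87 in the control. At the low end, ABCG1 had 0.451 CPM per kb in the knockdown and 0.120 in the control, HSD17B7 0.669 in the knockdown and 0.272 in the control, and MVK 0.380 in the knockdown and 0.342 in the control. TM7SF2 was the lowest of all in the knockdown, at 0.345, and had 0.912 in the control, where SREBF1 and NPC1 lay below it at 0.850 and 0.881. Exon lengths are those of GENCODE 29 and count every annotated exon, so that genes with long unused exons are understated.

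**Figure D2:**
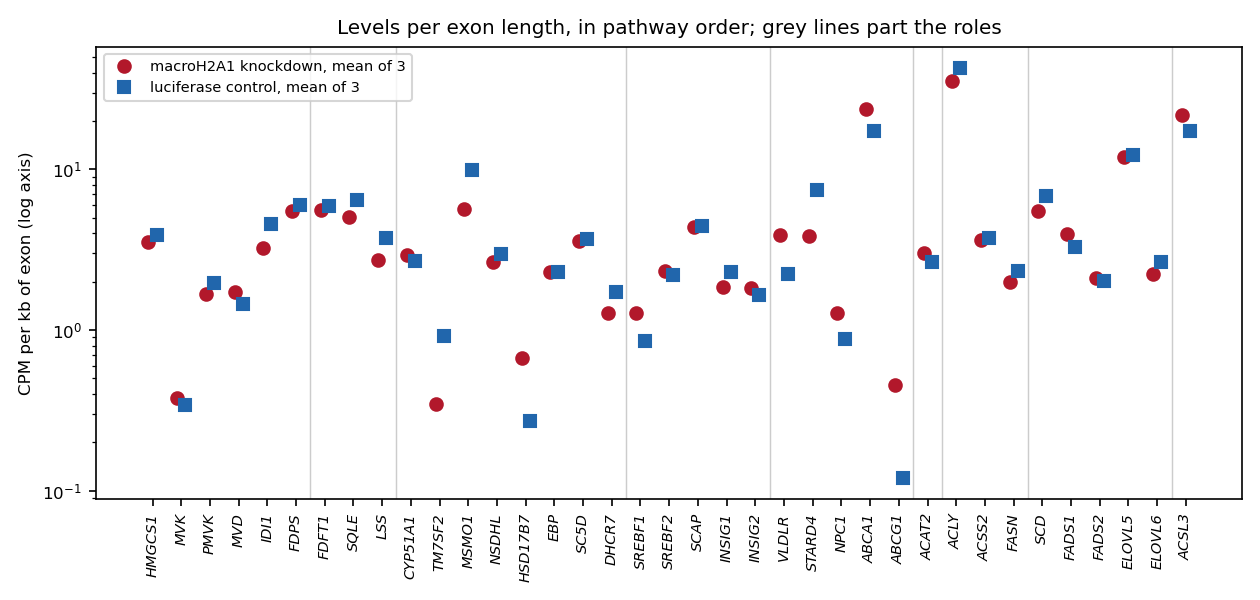
Mean level of the 37 genes per kilobase of exon (log axis) in the knockdown (circles, n = 3) and the control (squares, n = 3), in pathway order. ACLY, ABCA1, ACSL3 and ELOVL5 stand above the rest in both groups, and STARD4, MSMO1, TM7SF2 and ABCG1 show clear gaps between circle and square.

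In the mevalonate steps, IDI1 was called and the other 5 enzymes were not, against 8.21% of all genes called by edgeR. IDI1, which isomerises isopentenyl diphosphate, had 13.2, 15.9 and 13.1 CPM in the knockdown libraries, against 19.8, 19.4 and 20.4 CPM in the control libraries. All knockdown libraries lay below all control libraries. IDI1 fell by 0.49 on the log2 scale (SE 0.12, edgeR adjusted p = 0.0494), a call close to the threshold that was lost in 13 of 16 alternative settings. The authors' deposited table lists it with a log2 ratio of -0.48 and an adjusted p of 0.0972. An antisense gene shares 14.8% of its exons.

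HMGCS1, which condenses acetyl-CoA and acetoacetyl-CoA, had 16.6, 15.9 and 17.4 CPM in the knockdown against 18.4, 18.5 and 18.2 CPM in the control. Without overlap between the groups, the difference was small and did not pass (log2 fold change -0.14, 95% interval -0.37 to 0.08, edgeR adjusted p = 0.509). FDPS, which makes farnesyl diphosphate, averaged 20.5 ± 3.00 CPM in the knockdown and 22.3 ± 0.965 CPM in the control (SD, n = 3 each). FDPS has 8 annotated pseudogenes and reads that fit more than 1 copy are not counted, so its level is uncertain. The kinases MVK and PMVK and the decarboxylase MVD had log2 fold changes of 0.21, -0.24 and 0.24. MVK and PMVK had 33 and 28 counts in the knockdown group and 30 and 36 in the control group, too few to show a small change: the 95% interval for MVK ran from -0.69 to 1.11. ACAT2, the thiolase that supplies acetoacetyl-CoA, had a log2 fold change of 0.17 (interval -0.21 to 0.55). On the other strand, SOD2-OT1, SOD2 and TCP1 overlap 33.9%, 26.5% and 9.2% of its exons. If strand was not used in counting, part of its reads may have been left out as ambiguous.

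The 3 enzymes from farnesyl diphosphate to lanosterol all had negative fold changes, and none passed by edgeR, DESeq2 or limma-voom, with 2 at an unadjusted p under 0.05. Over all genes tested, 49.2% had negative fold changes, 8.21% were called by edgeR and 12.5% were lower at an unadjusted p under 0.05. LSS, which closes the sterol rings, had 18.8, 20.9 and 19.6 CPM in the knockdown, against 26.7, 23.6 and 30.9 CPM in the control. No knockdown library reached the control range (log2 fold change -0.45, SE 0.12, edgeR adjusted p = 0.0680). SQLE, the squalene epoxidase, had 23.1, 23.3 and 19.0 CPM in the knockdown against 26.9, 31.8 and 24.6 CPM in the control, again without overlap (log2 fold change -0.34, SE 0.13, edgeR adjusted p = 0.165). FDFT1, the squalene synthase, overlapped between the groups (log2 fold change -0.07, interval -0.31 to 0.18).

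Of the 8 enzymes from lanosterol to cholesterol, MSMO1 and TM7SF2 fell and 6 did not pass, against 4.31% of all genes called lower. MSMO1 is an oxygenase that takes part in the removal of methyl groups from the sterol ring, after CYP51A1. It had 17.6, 16.1 and 15.8 CPM in the knockdown libraries, against 30.2, 27.4 and 28.0 CPM in the control libraries. Every knockdown library was far below every control library, and the knockdown mean was 57.8% of the control mean (log2 fold change -0.79, SE 0.09, edgeR adjusted p = 0.00484). NSDHL and HSD17B7 act with MSMO1 in the same step. NSDHL averaged 5.32 ± 0.356 CPM in the knockdown and 5.94 ± 0.782 CPM in the control (SD, n = 3 each), with overlapping libraries. HSD17B7 had a positive fold change, with 22, 13 and 9 counts in the knockdown and 12, 3 and 5 in the control. Its CPM values did not overlap, and its log2 fold change of 1.24 (SE 0.41) did not pass (edgeR adjusted p = 0.123). HSD17B7 has 2 annotated pseudogenes, and its few counts are uncertain for that reason as well. It reached the filter in all knockdown libraries and in no control library, so the gap between its groups is a description.

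TM7SF2, a sterol reductase, had 8, 4 and 4 counts in the knockdown libraries and 17, 14 and 13 in the control libraries. The groups did not overlap, at 0.870 to 1.58 CPM in the knockdown and 2.69 to 3.44 CPM in the control (log2 fold change -1.35, SE 0.31, edgeR adjusted p = 0.0445). The ratio of summed counts was 0.393 with an exact conditional 95% interval of 0.207 to 0.711, which covers counting error only. The call was lost in 11 of 16 alternative settings, and the authors' deposited table gives an adjusted p of 0.125. TM7SF2 reached the filter of 2.24 CPM in all control libraries and in no knockdown library. It was thus tested because it is high in the control, and its call and the gap between its groups are descriptions.

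CYP51A1, the lanosterol demethylase, had 10.9, 8.70 and 11.8 CPM in the knockdown against 8.07, 10.97 and 10.0 CPM in the control, a log2 fold change of 0.11 (interval -0.34 to 0.57). In GENCODE 29 a read-through gene on the same strand covers 79.4% of its exons, so part of its reads may have been left out as ambiguous. EBP and SC5D, the isomerase and the desaturase of later steps, had log2 fold changes of -0.02 and -0.04. DHCR7, the reductase of the last step, had 3.56, 4.35 and 8.04 CPM in the knockdown and 6.80, 9.14 and 5.55 CPM in the control, a spread that leaves an interval of -1.30 to 0.37.

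Of the 5 regulators of the pathway tested, 0 were called by edgeR, DESeq2 or limma-voom, against 8.21% of all genes called by edgeR. An unadjusted p under 0.05 was found for 1, which was higher, against 12% of all genes. That gene was SREBF1, which encodes the SREBP of fatty acid synthesis and is itself an LXR target. It had 8.90, 11.1 and 10.7 CPM in the knockdown libraries, against 5.70, 6.86 and 7.93 CPM in the control libraries. All knockdown libraries were above all control libraries (log2 fold change 0.59, SE 0.19, interval 0.14 to 1.05, edgeR adjusted p = 0.114). SREBF2, the SREBP of cholesterol synthesis, averaged 17.6 ± 2.81 CPM in the knockdown and 16.7 ± 2.88 CPM in the control (SD, n = 3 each). SCAP, their escort, averaged 28.2 ± 1.45 CPM in the knockdown and 28.6 ± 2.12 CPM in the control, with an interval of -0.23 to 0.20 on the log2 scale. INSIG1, a feedback target of SREBP, had a log2 fold change of -0.28 (interval -0.76 to 0.20) and INSIG2 one of 0.12 (interval -0.59 to 0.84).

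Of the 5 genes of sterol uptake, transport and efflux, 4 were tested, with 1 called lower and 2 higher. Over all genes tested, 4.31% were called lower and 3.9% higher. STARD4, a soluble carrier that moves cholesterol between membranes and is a known SREBP target, had 21.6, 23.3 and 20.4 CPM in the knockdown libraries, against 40.3, 43.0 and 43.6 CPM in the control libraries. The groups lay far apart, and the knockdown mean was 51.4% of the control mean (log2 fold change -0.96, SE 0.08, edgeR adjusted p = 0.00175). An antisense gene shares 2.2% of its exons.

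VLDLR, a receptor of lipoproteins rich in triglyceride, had 31.8, 38.9 and 38.3 CPM in the knockdown libraries, against 21.8, 21.0 and 20.1 CPM in the control libraries. It rose 1.73-fold (log2 fold change 0.79, SE 0.10, edgeR adjusted p = 0.00735), and an antisense gene shares 7.9% of its exons. ABCA1, the transporter that loads cholesterol onto lipid-poor apolipoproteins, had 268, 265 and 274 CPM in the knockdown libraries, against 192, 188 and 207 CPM in the control libraries. It rose 1.37-fold, with little spread within either group (log2 fold change 0.46, SE 0.07, edgeR adjusted p = 0.0126). The edgeR adjusted p was 0.0525 when knockdown replicate 3 was left out, 0.0569 without control replicate 1 and 0.0639 without control replicate 2.

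ABCG1, the transporter that exports cholesterol to formed lipoproteins, was too low to pass the filter. It had 10, 13 and 13 counts in the knockdown libraries and 5, 5 and 1 in the control libraries. The groups did not overlap, and the ratio of summed counts was 3.54 with an exact conditional 95% interval of 1.76 to 7.71, for counting error only. The authors' deposited table lists it with a log2 ratio of 1.92 and an adjusted p of 0.0436. With a looser filter, 20 counts over all libraries, its log2 fold change was 1.82 (edgeR adjusted p = 0.0928). When the test was limited to the genes of the authors' table, the log2 fold change was also 1.82 and ABCG1 passed (edgeR adjusted p = 0.0130). NPC1, which releases cholesterol from lysosomes, had 13.0, 11.1 and 14.5 CPM in the knockdown and 7.44, 6.86 and 12.4 CPM in the control. Control replicate 3 lay within the range of the knockdown libraries (log2 fold change 0.55, interval -0.06 to 1.15, edgeR adjusted p = 0.246).

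**Figure D3:**
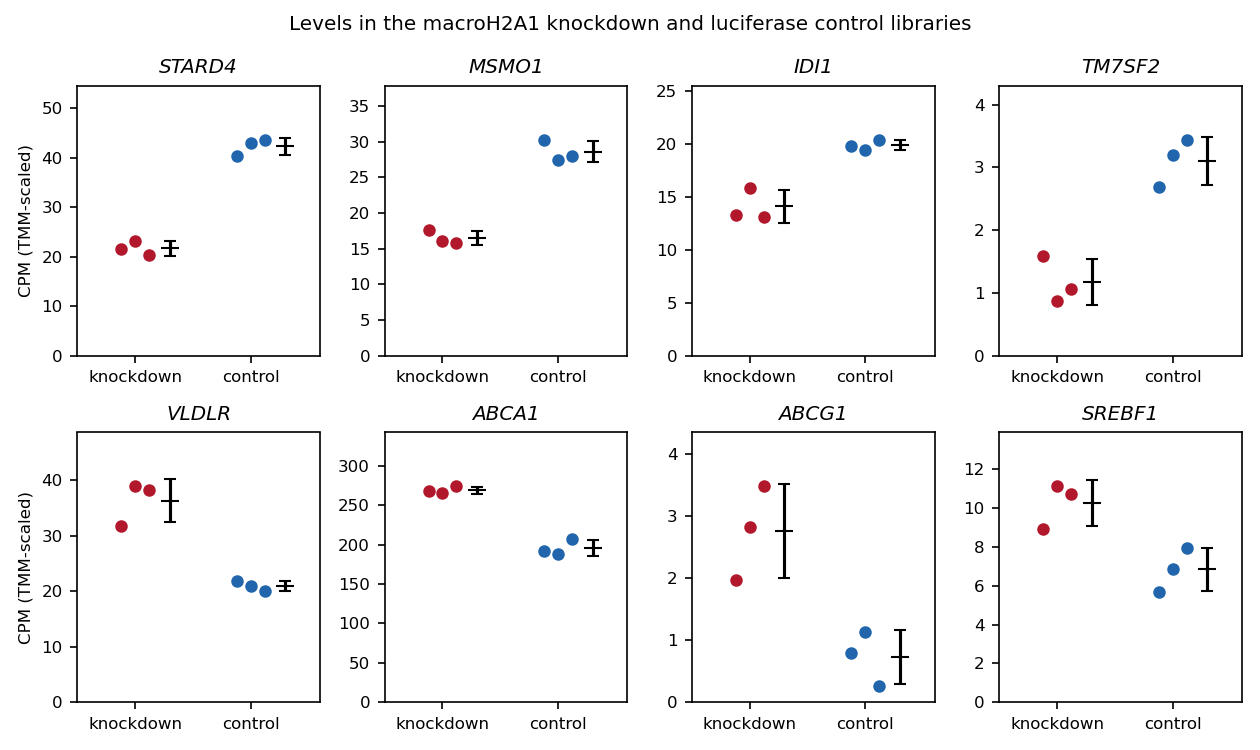
Level in each library (points, CPM) with the mean and SD of the group beside them (n = 3), knockdown at the left and control at the right of each panel. STARD4, MSMO1, IDI1 and TM7SF2 sit lower in the knockdown, and VLDLR, ABCA1, ABCG1 and SREBF1 higher. All 8 panels show genes whose groups did not overlap, as was found for 30.4% of all genes tested. SREBF1 did not pass the test, ABCG1 was not tested, and TM7SF2 reached the filter on low counts in the control group only.

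None of the 9 fatty acid genes passed by edgeR, which called 8.21% of all genes, while DESeq2 called 2 and limma-voom 1. An unadjusted p under 0.05 was found for 4, with 2 lower and 2 higher, against 12.5% and 12% of all genes. ACLY, which makes cytosolic acetyl-CoA from citrate for both pathways, had 180.0, 192 and 184 CPM in the knockdown libraries, against 214, 228 and 232 CPM in the control libraries. The groups did not overlap (log2 fold change -0.28, SE 0.07, edgeR adjusted p = 0.0554), and the authors' deposited table lists it with an adjusted p of 0.00596. ACSS2, which makes acetyl-CoA from acetate, had a log2 fold change of -0.06 (interval -0.29 to 0.16). FASN, the fatty acid synthase, had 22.6, 18.7 and 15.0 CPM in the knockdown and 19.3, 22.6 and 23.3 CPM in the control, with overlap (log2 fold change -0.20, interval -0.59 to 0.19).

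The desaturases SCD and FADS1 had fold changes of opposite sign, neither past the test. SCD, which makes oleate from stearate, had 27.9, 29.1 and 31.9 CPM in the knockdown and 32.6, 35.9 and 41.2 CPM in the control. Here too the groups were apart (log2 fold change -0.30, SE 0.11, edgeR adjusted p = 0.148). FADS1, a desaturase of polyunsaturated fatty acids, had 39.2, 40.7 and 41.5 CPM in the knockdown and 34.2, 35.0 and 31.4 CPM in the control, again without overlap (log2 fold change 0.27, SE 0.07, edgeR adjusted p = 0.0770). FADS2, its neighbour on the opposite strand, shares 4.4% of its exons with FADS1 and had a log2 fold change of 0.06 (interval -0.32 to 0.44). The elongases ELOVL5 and ELOVL6 had log2 fold changes of -0.05 and -0.24, with overlapping groups. ACSL3, which activates fatty acids for lipid droplets, had 161, 148 and 162 CPM in the knockdown libraries, against 140.0, 119 and 117 CPM in the control libraries. The groups did not overlap (log2 fold change 0.33, SE 0.09, edgeR adjusted p = 0.0821), and the authors' deposited table lists it with an adjusted p of 0.00939.

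In the authors' deposited table, all 37 genes are listed and 7 have an adjusted p under 0.05, against 1400 of all 11638 genes listed there. STARD4, MSMO1 and ACLY are lower in the knockdown there, and VLDLR, ABCA1, ABCG1 and ACSL3 higher. STARD4, MSMO1, VLDLR and ABCA1 are thus the 4 genes that both the edgeR test and the authors' deposited table call.

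**Figure D4:**
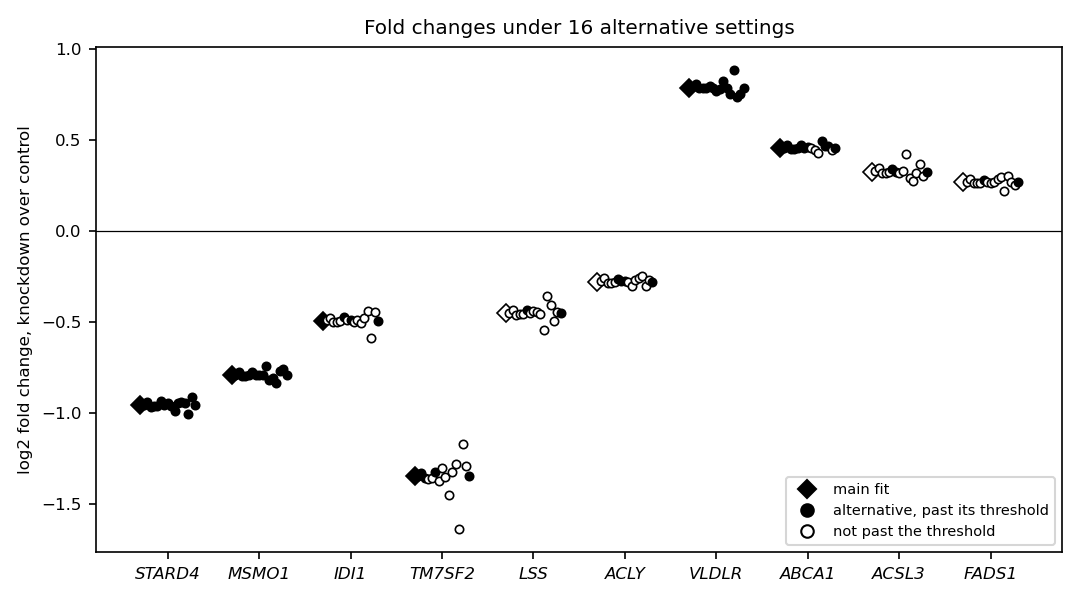
Log2 fold change (knockdown over control) of 10 genes as reported (diamond) and in 16 alternative settings (circles), filled where the adjusted p was under the threshold of that setting. STARD4, MSMO1 and VLDLR are filled throughout, ABCA1 lost its call in 4 settings, and IDI1 and TM7SF2 in 13 and 11; every fold change kept its sign.

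Among 121 other genes of lipid pathways, listed by role, 108 were tested, 4 fell and 3 rose, against 4.31% and 3.9% of all genes. Their median log2 fold change was -0.05. ABHD5, the coactivator of the lipase that empties lipid droplets, had 49.2, 47.4 and 51.7 CPM in the knockdown libraries, against 28.6, 31.1 and 31.2 CPM in the control libraries (log2 fold change 0.71, SE 0.08, edgeR adjusted p = 0.00362). PLIN3, a coat protein of lipid droplets, had 58.2, 56.3 and 58.7 CPM in the knockdown against 75.1, 80.5 and 69.8 CPM in the control (log2 fold change -0.38, SE 0.08, edgeR adjusted p = 0.0318). NCEH1, a hydrolase that frees cholesterol from its esters, had 20.4, 17.2 and 21.2 CPM in the knockdown against 29.1, 35.7 and 31.2 CPM in the control (log2 fold change -0.71, SE 0.12, edgeR adjusted p = 0.0170). For these 3 genes the groups did not overlap. ABHD5 kept its call in all 16 alternative settings, while PLIN3 lost it in 7 and NCEH1 in 5.

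RXRA, the partner of LXR, rose to 31.2, 32.8 and 26.8 CPM in the knockdown, against 18.8, 21.7 and 19.3 CPM in the control (log2 fold change 0.61, SE 0.11, edgeR adjusted p = 0.0216). The call was lost in 6 of 16 alternative settings. RXRA was the one called gene of the 6 tested for LXR and its targets, against 3.9% of all genes called higher. A negative fold change was found for 1 of the 6, against 49.2% of all genes, and their median was 0.34. Of the LXR genes, NR1H3 overlapped between the groups (log2 fold change 0.34, SE 0.29) and NR1H2 had a log2 fold change of -0.04. The LXR targets MYLIP and LPCAT3 had log2 fold changes of 0.48 and 0.35, neither past the test (edgeR adjusted p = 0.362 and 0.374).

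The remaining calls were CAV1, ME1 and SLC27A3. CAV1, the main protein of caveolae, fell to 404, 407 and 406 CPM in the knockdown, against 501, 488 and 526 CPM in the control (log2 fold change -0.32, SE 0.07, edgeR adjusted p = 0.0403). ME1, the malic enzyme that supplies NADPH, fell by 0.38 on the log2 scale (SE 0.08, edgeR adjusted p = 0.0377). SLC27A3, of the fatty acid transport family, rose to 3.56, 3.70 and 2.41 CPM in the knockdown, against 0.949, 1.14 and 1.06 CPM in the control (log2 fold change 1.62, SE 0.30, edgeR adjusted p = 0.0219). SLC27A3 reached the filter of 2.24 CPM in the knockdown libraries and in no control library, so it was tested because it is high in the knockdown, and its call is a description. DESeq2 called neither ME1 (adjusted p = 0.0767) nor SLC27A3 (adjusted p = 0.0556). The edgeR calls of CAV1, ME1 and SLC27A3 were lost in 10, 11 and 8 of 16 alternative settings.

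Of 12 genes of SREBP processing and turnover, edgeR and DESeq2 called 0 and limma-voom 1. Fold changes were negative for 10 of the 12, and 5 of these had an unadjusted p under 0.05; in 6 the groups did not overlap, with the knockdown lower. Over all genes tested these shares were 49.2%, 12.5% and 15.9%. The genes named here and among those of LXR that did not pass were chosen after their values were seen. SEC23A, a coat protein of the vesicles that leave the endoplasmic reticulum, is one: it had 440.0, 416 and 405 CPM in the knockdown against 499, 509 and 484 CPM in the control (log2 fold change -0.24, SE 0.07, edgeR adjusted p = 0.0938). SEC23A is the gene that limma-voom called (adjusted p = 0.0283), and the authors' deposited table gives it an adjusted p of 0.00323. The proteases MBTPS1 and MBTPS2, which cleave SREBPs, had log2 fold changes of 0.01 and 0.39. Of 17 genes of fatty acid oxidation, 0 passed by edgeR, DESeq2 or limma-voom, against 8.21% of all genes called by edgeR. An unadjusted p under 0.05 was found for 2, both higher, against 12% of all genes. Fold changes were positive for 12 of the 17 and negative for 5, against 49.2% negative over all genes, with a median of 0.10. Of 11 genes of glycerolipid synthesis, 0 passed by any of these tools, again against 8.21% by edgeR, and the median was -0.21. An unadjusted p under 0.05 was found for 1, which was lower, against 12.5% of all genes.

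**Figure D5:**
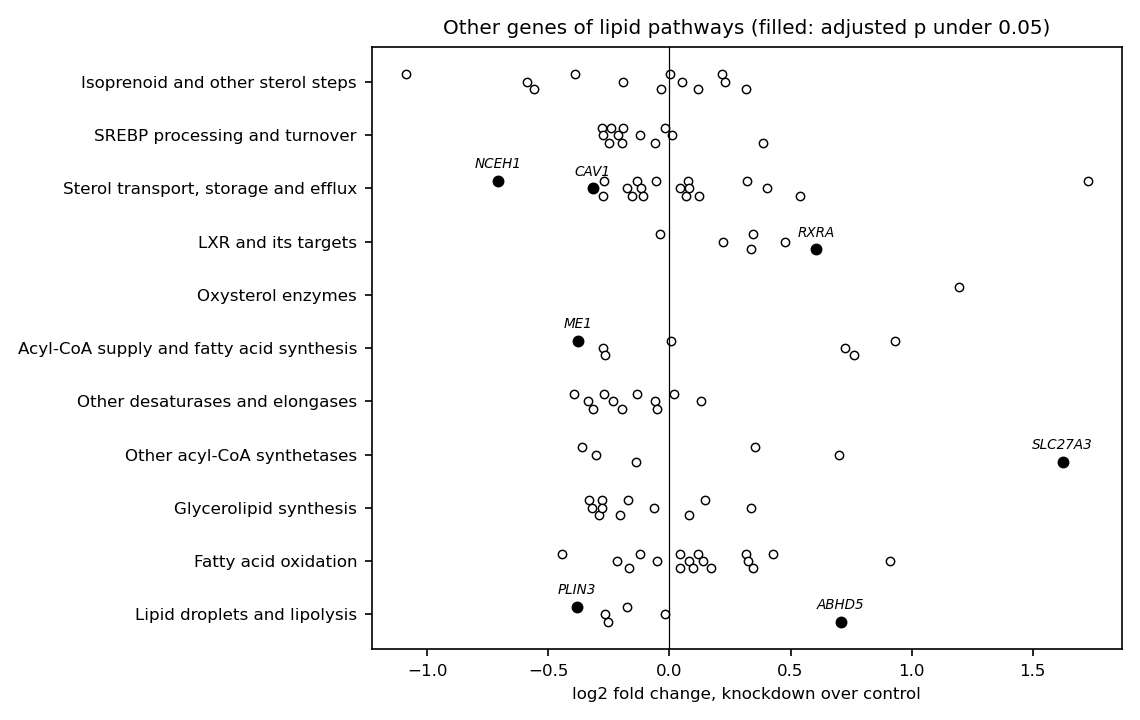
Log2 fold change (knockdown over control) on the x axis of the 108 tested genes outside the main set, 1 point per gene, by role down the page. The 7 filled and named points passed the test, and the open point at 1.73 is OSBP, whose 3 knockdown libraries differ widely.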

How the data were processed

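Each library has a table of raw counts, 1 value per Ensembl gene, as deposited. The submitters' processing notes name CASAVA 1.7, GSNAP, HTSeq and hg19, and the file names give union mode. Neither annotation nor strand setting is given in the sources used here. Libraries were depleted of ribosomal RNA and shared a sequencing lane, per the labels' protocols. Totals exclude the lines without a gene: 64.4% to 68.8% of reads had no unique alignment, 8.34% to 11.3% no feature, 6.85% to 9.63% were not aligned, 1.51% to 1.85% were ambiguous and 0.326% to 0.479% of low quality. Genes took 11.9% to 13.7%.

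The authors also deposited a comparison made with DESeq 1.10.1, whose columns hold, per the file headers, mean signal (scaled counts), the fold ratio of group means, its log2 and p-values.

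Tests used edgeR 4.0.16 in R 4.3.3 on 13445 genes kept by filterByExpr (minimum count 10), with TMM, glmQLFit and glmQLFTest by group, and Benjamini-Hochberg adjustment over all genes tested. The SE is the size of the log2 fold change over the square root of F, and 95% intervals use the moderated degrees of freedom of the fit. Alternatives were 3 other scalings, 2 looser filters, a table cut to the authors' genes, DESeq2 1.42.0, limma-voom (limma 3.58.1), a replicate block, each library left out, and an adjusted p of 0.1. Steps were tested on simulated counts. Symbols matched 47399 genes; exon lengths and overlaps came from GENCODE 29, which is on another build. Every gene of the set is named, with each library's value for those with an unadjusted p under 0.05 and the largest change of each role. Genes and lists were chosen with earlier results of these data known.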

Additional observations from a re-analysis of the deposited data

How the results depend on the processing

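Of the 6 called genes, STARD4, MSMO1 and VLDLR kept their call in all 16 alternative settings, ABCA1 in 12, TM7SF2 in 5 and IDI1 in 3. Counts of calls moved by more than 1.5 times as follows. With total counts as library size, 2 other pathway genes were lower. With genes of at least 20 counts in total, 2 of the set and 2 other pathway genes were lower. With no filter, 2 of the set and 1 other pathway gene were lower and 5 other pathway genes higher. With the authors' genes alone, 1046 of all genes were lower and 1014 higher, 7 of the set higher, and 9 and 8 other pathway genes lower and higher. With limma-voom, 5 other pathway genes were higher. At an adjusted p under 0.1, 973 of all genes were lower and 908 higher, 4 of the set higher, and 9 and 7 other pathway genes lower and higher. The cause was not tested.

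The replicate numbers did not pair the libraries: deviations of same-numbered libraries correlated at -0.0344, -0.0471 and -0.229 over 8398 genes. With the replicate block, 186 of all genes were lower and 230 higher, 2 of the set lower (STARD4 and MSMO1) and 1 higher (VLDLR), and 0 and 1 other pathway genes lower and higher.

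With 1 library left out, 198 to 262 of all genes were lower and 225 to 303 higher, 2 to 2 of the set lower and 1 to 2 higher, and 0 to 1 other pathway genes lower and 1 to 3 higher. The median of the sterol genes ran from -0.14, without knockdown replicate 3, to -0.0077. Of the other pathway genes, ABHD5 kept its call in all settings; NCEH1, RXRA, PLIN3, SLC27A3, CAV1 and ME1 lost theirs in 5, 6, 7, 8, 10 and 11 of 16.

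Signs turned only for genes that were not called, 9 of the 36. With upper-quartile scaling EBP was at 0.00036 and SCAP at 0.0047; with the authors' genes alone SCAP was at 0.012, and with limma-voom at 0.0045. With 1 library left out, the log2 fold changes of these 9 genes ran as follows: MVK -0.068 to 0.52, CYP51A1 -0.0068 to 0.23, EBP -0.24 to 0.24, SC5D -0.12 to 0.095, SREBF2 -0.0197 to 0.21, SCAP -0.067 to 0.034, INSIG2 -0.18 to 0.35, FADS2 -0.13 to 0.16 and ELOVL5 -0.17 to 0.075. Counts under about 50 per group, as for MVK, PMVK, TM7SF2, HSD17B7 and ABCG1, leave intervals too wide to show small changes.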

Other observations

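OSBP, a sensor and carrier of oxysterols at the contacts between endoplasmic reticulum and Golgi, was singled out after its values were seen. It had 384, 58.3 and 147 CPM in the knockdown libraries, against 58.5, 58.8 and 60.8 CPM in the control libraries. Knockdown replicate 2 lay at the control level while the other 2 knockdown libraries lay above it, and the log2 fold change of 1.73 (SE 0.60) did not pass (edgeR adjusted p = 0.135).

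CYP27A1, which makes an oxysterol that activates LXR, had 67 counts in the knockdown group and 32 in the control group, and its difference of 1.20 on the log2 scale (SE 0.39) missed the threshold (edgeR adjusted p = 0.118). PLIN2, a droplet coat protein often used as a sign of stored lipid, differed by -0.25 on the log2 scale (SE 0.08, edgeR adjusted p = 0.113). MLXIP, a glucose-responsive transcription factor, differed by 0.76 (SE 0.19, edgeR adjusted p = 0.0554). DESeq2 and limma-voom called MLXIP (adjusted p = 0.0480 and 0.0407), and the authors' deposited table gives it an adjusted p of 0.00711. Neither tool called CYP27A1 or PLIN2. These 3 genes, too, were picked with their values seen.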
